A study of Mus musculus with 24 samples.

Results

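Fibroblasts that lack CHOP were compared after 8 h of tunicamycin and without treatment. The comparison uses 8 of the 24 arrays of the study, 4 of them from CHOP-/- cells given tunicamycin at 2 µg/ml for 8 h and 4 from untreated CHOP-/- cells, chosen by their titles. All 8251 genes that a single-gene probe set represents on the array were considered, and the 5692 above a filter on low signals were tested. CHOP-/- cells given the same dose for 4 h (4 arrays), wild type cells given it for 8 h (4 arrays) and untreated wild type cells (4 arrays) serve as comparison groups. All groups are primary mouse embryonic fibroblasts and all arrays carry total RNA. The labels give no allele for the CHOP-/- cells, no number of embryos, no passage for the CHOP-/- arrays, no solvent-only group and no time in culture for the untreated cells. They do not say whether replicate arrays stem from separate cultures. The p-values therefore reflect the spread among these samples alone, which may be technical.

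Tunicamycin blocks the first step of N-linked glycosylation, so that glycoproteins entering the endoplasmic reticulum (ER) fail to fold. The unfolded protein response then runs through 3 sensors: ATF6, IRE1 (which splices Xbp1 mRNA) and PERK, whose phosphorylation of eIF2 alpha slows translation and raises ATF4. Ddit3 encodes CHOP, a transcription factor that is made downstream of ATF4 and is known for promoting cell death under lasting ER stress. The measurements below describe the late response of cells without it. Where a level of an mRNA changes in a bulk sample, fewer cells of a type and less RNA per cell cannot be told apart.

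Values are probe set signals as deposited, a brightness on a linear scale with no unit. Changes are log2 differences, 8 h minus untreated, of quantile normalized log2(signal + 5.7), given with their standard error (SE), and they understate the change of dim genes. A gene is called when limma's moderated test, adjusted over all 5692 genes by the Benjamini-Hochberg method, gives p under 0.05.

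The targeted gene was checked first. Ddit3 had signals of 7.1, 39.0, 24.5 and 11.4 in CHOP-/- cells at 8 h, against 7.1, 12.4, 32.3 and 6.9 in untreated CHOP-/- cells, so the groups overlap near the bottom of the signal scale. In wild type cells at 8 h it had 3857.0, 4782.1, 4009.9 and 4883.0, against 296.2, 215.5, 437.0 and 249.9 in untreated wild type cells. The change in CHOP-/- cells was 0.44 ± 0.35 on the log2 scale (exact two-sided permutation p = 0.4571, 4 arrays against 4). At 8 h the CHOP-/- arrays lay at least 144-fold lower than the wild type arrays, taking 27.7, the filter on low signals, for the 3 CHOP-/- arrays below it (exact p = 0.0286, the smallest that 4 against 4 arrays allow). The sources used here do not say where the probe set lies relative to the deleted part of the gene. Car6, a secreted carbonic anhydrase reported as a CHOP target, had signals of 2.1 to 3.5 in CHOP-/- cells at 8 h and 2.2 to 13.2 in untreated CHOP-/- cells, all below the filter, against a mean of 114.8 in wild type cells at 8 h.

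Across the 8 arrays the median signal lay between 54.7 and 67.7, and the 3' to 5' signal ratio between 0.755 and 0.852 for Gapdh and between 1.036 and 1.24 for actin. Fibroblast genes were bright on these arrays: Col1a1 averaged 8281 ± 1664 at 8 h and 7337 ± 2194 in untreated cells (SD, n = 4 each), and Thy1 3569 ± 1150 at 8 h and 3364 ± 299 in untreated cells. Vim, a further fibroblast marker, gave 26.3 ± 10.7 at 8 h and 22.0 ± 8.86 in untreated cells, so its probe set shows no bright signal in either group. Of the 15 fibroblast markers tested, 0 were called higher and 2 lower, against 7.27% and 6.64% of all tested genes. The change was positive for 3 of the 15, and their median change was -0.28. The summed signal of the 16 fibroblast markers ranged from 25474 to 37563 at 8 h and from 27622 to 38649 in untreated cells. For each of the 9 other cell types examined the summed markers of the groups also overlapped, while defining markers such as Ptprc, Epcam, Cdh5 and Gfap stayed below 27.7 on all 8 arrays. Over whole lists, 5 of 14 leukocyte, 4 of 10 epithelial, 4 of 9 endothelial and 5 of 10 neural markers did so, and others were brighter. Smooth muscle markers were the brightest of these other lists, and 0 of 7 stayed below 27.7 on all 8 arrays. Their sum ranged from 20086.5 to 22872.0 at 8 h and from 15174.9 to 22897.7 in untreated cells. The neural sum ranged from 3693 to 4550 at 8 h and from 3604 to 4661 in untreated cells. One untreated array stood apart: C had the largest root mean square distance from its group over the tested genes, 0.379 log2 units, against 0.245 to 0.33 for untreated A, B and D and 0.22 to 0.289 for the 8 h arrays. Counts that change most without it are given beside the results.

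At 8 h, 414 of 5692 genes were higher (7.27% of those tested) and 378 were lower (6.64%). Of these 792 genes, 103 higher and 98 lower genes had changed at least 2-fold. The 8 h arrays did not overlap the untreated arrays for 1054 genes (18.5%). Without untreated array C 742 genes were called, and 626 genes were called both with and without it (79% of the 792). Over all tested genes the median change was -0.01. When arrays were centred on their medians instead of quantile normalized, 641 genes were called and 65.7% of them were higher, against 52.3% here.

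**Figure D1:**
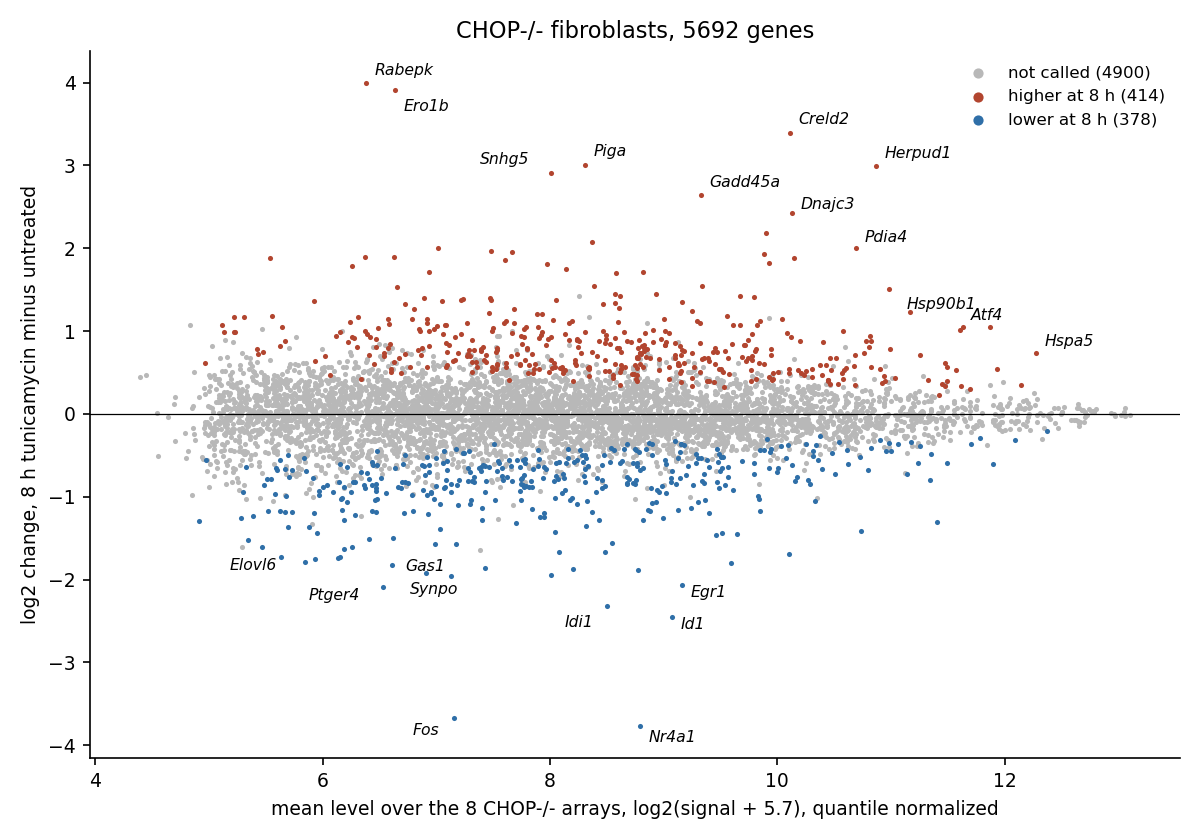
Change at 8 h against level in CHOP-/- fibroblasts. Each dot is 1 of 5692 tested genes; the horizontal axis is the mean log2 level over the 8 arrays and the vertical axis the log2 change, 8 h minus untreated. Red dots (414) are called higher and blue dots (378) called lower at an adjusted p under 0.05; Rabepk (4.00) and Ero1b (3.91) stand at the top and Nr4a1 (-3.76) at the bottom, and as most untreated signals of Rabepk and Ero1b lie below the filter, their order is not resolved.

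Several of the largest rises were genes of protein folding and degradation in the ER, and some of their promoters hold the motifs through which ER stress acts. The ER stress response element (ERSE) is CCAAT and CCACG with 9 bases between them, and ERSE-II is ATTGG and CCACG with 1 base between them. Promoter windows of 300 bases, 250 before and 50 after the start of the gene, come from RefSeq (GRCm38.p6). The 4 named rises with the largest changes whose window holds one of these motifs are shown whole, with the motif in capitals, because their promoters carry the pattern that the shares below describe. They are Ero1b (an oxidase that keeps disulfide bonds forming in the ER, chr13:12565633-12565932, plus strand), Creld2 (a secreted ER chaperone, chr15:88819396-88819695, plus strand), Herpud1 (a membrane protein of ER-associated degradation, chr8:94386179-94386478, plus strand) and Dnajc3 (p58IPK, a co-chaperone that also inhibits PERK, chr14:118937682-118937981, plus strand).
Ero1b: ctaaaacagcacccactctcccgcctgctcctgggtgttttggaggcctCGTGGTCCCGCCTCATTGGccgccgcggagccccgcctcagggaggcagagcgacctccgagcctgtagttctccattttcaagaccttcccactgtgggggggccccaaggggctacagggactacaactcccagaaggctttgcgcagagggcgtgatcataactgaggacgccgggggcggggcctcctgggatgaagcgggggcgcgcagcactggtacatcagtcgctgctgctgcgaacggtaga
Creld2: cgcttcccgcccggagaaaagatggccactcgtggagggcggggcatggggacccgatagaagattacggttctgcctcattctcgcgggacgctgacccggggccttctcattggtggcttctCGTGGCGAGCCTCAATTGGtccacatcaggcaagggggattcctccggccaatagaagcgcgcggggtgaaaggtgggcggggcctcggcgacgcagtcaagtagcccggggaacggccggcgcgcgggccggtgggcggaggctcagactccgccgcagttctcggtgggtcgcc
Herpud1: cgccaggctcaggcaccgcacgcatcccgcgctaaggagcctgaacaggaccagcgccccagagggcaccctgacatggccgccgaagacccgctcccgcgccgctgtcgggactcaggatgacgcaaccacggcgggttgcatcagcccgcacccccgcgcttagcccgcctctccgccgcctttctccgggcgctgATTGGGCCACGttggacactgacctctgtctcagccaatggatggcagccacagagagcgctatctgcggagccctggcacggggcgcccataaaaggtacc
Dnajc3: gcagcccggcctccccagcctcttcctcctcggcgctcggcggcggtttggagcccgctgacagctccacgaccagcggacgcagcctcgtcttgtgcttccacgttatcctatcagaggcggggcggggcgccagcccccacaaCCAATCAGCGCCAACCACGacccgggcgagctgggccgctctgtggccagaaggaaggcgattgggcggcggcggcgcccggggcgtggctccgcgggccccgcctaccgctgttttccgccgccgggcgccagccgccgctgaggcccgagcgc

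Every ERSE match in the promoter of a gene called higher at 8 h is set out next, read along the strand on which it starts with CCAAT, with the 9 spacer bases in lower case. The capitals are the same in every line because the search fixed them, while it left the spacer free.
Ero1b: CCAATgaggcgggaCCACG
Creld2: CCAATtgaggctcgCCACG
Dnajc3: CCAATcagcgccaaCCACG
Zfp57: CCAATgcctgaatgCCACG
Pdia6: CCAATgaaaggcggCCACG
Hsp90b1: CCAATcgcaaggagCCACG
Hsp90b1: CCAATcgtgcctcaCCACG
Hspa5: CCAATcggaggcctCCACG
The 7 genes comprise chaperones and oxidoreductases of the ER (Pdia6 forms disulfide bonds, Hsp90b1 is GRP94 and Hspa5 is BiP) and Zfp57, a zinc finger protein known for maintaining imprints. Hsp90b1 holds 2 matches, at 212 to 194 and at 107 to 89 bases before its start. The other matches start between 201 and 33 bases before the start of their gene.

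ERSE-II was found in 5 genes called higher, shown in the same way.
Herpud1: ATTGGgCCACG
Dnajb11: ATTGGcCCACG
Rcl1: ATTGGcCCACG
Rbm39: ATTGGgCCACG
Nucb1: ATTGGtCCACG
Dnajb11 is an ER co-chaperone of BiP and Nucb1 a calcium-binding protein of the Golgi, while Rcl1 acts in ribosome assembly and Rbm39 in splicing. The search leaves only the middle base free, which is c in Rcl1 and Dnajb11, g in Herpud1 and Rbm39 and t in Nucb1. In Dnajb11 the match lies 7 to 17 bases after the start, and in the other genes before it.

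As a description of the windows, ERSE was present for 7 of 340 genes called higher that have a window (2.06%), for 0 of 318 genes called lower and for 4 of 3964 tested genes without a call (0.101%). Over all 32851 windows of the table the share was 0.119%. ERSE-II was present for 5 of 340 genes called higher (1.47%), 0 of 318 called lower and 2 of 3964 without a call (0.0505%), against 0.0365% of all windows. The unfolded protein response element TGACGTGG, searched on both strands, was present for 11 genes called higher (3.24%), 0 called lower and 45 without a call (1.14%), against 0.676% of all windows. Among these 11 were Stx5a and Copb1 of vesicle transport, Slc30a5, a zinc transporter of the secretory pathway, and Vegfa. TGACGTCA, the cAMP response element, was about as frequent among genes called higher (3.53%), called lower (4.09%) and without a call (3.51%). Each ERSE match also holds a CCAAT box, which was present for 57.1% of the genes called higher, 51.6% of those called lower and 40.8% of those without a call. A core of the amino acid response element is TGATG and AAT with 1 base between them. This core was present for 1 gene called higher (0.294%), 1 called lower (0.314%) and 19 without a call (0.479%), against 0.965% of all windows.

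Most genes of ER folding that were called rose. Of 27 chaperones and folding enzymes tested, 16 were higher and 1 was lower, with a median change of 0.57. Ero1b had signals of 320.1, 385.3, 389.9 and 446.3 at 8 h, against 34.3, 16.3, 15.8 and 20.7 in untreated cells. The groups do not overlap, and 3 of the 4 untreated signals lie below the filter at 27.7 (log2 change 3.91 ± 0.36, limma adjusted p = 7.44e-08). Creld2 had signals of 3581.5, 3177.7, 4142.6 and 3382.2 at 8 h, against 360.2, 302.0, 356.1 and 341.0 in untreated cells (3.39 ± 0.25, limma adjusted p = 2.41e-09). All 4 treated arrays lie far above the untreated ones. Dnajc3 had signals of 2820.2, 3214.6, 2115.4 and 2408.6 at 8 h, against 588.9, 509.9, 409.9 and 429.7 in untreated cells (2.42 ± 0.24, limma adjusted p = 2.34e-07). Pdia4, a disulfide isomerase, had 3878.2, 3520.5, 2914.4 and 3228.7 at 8 h, against 869.5, 892.7, 827.1 and 749.5 in untreated cells (2.00 ± 0.19). Dnajb9, a co-chaperone that restrains IRE1, had 1718.3, 1821.6, 1811.6 and 1992.8 at 8 h, against 577.2, 519.0, 304.7 and 570.9 in untreated cells, where array C was low (1.93 ± 0.22). For none of these genes did the groups overlap.

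The abundant chaperones changed less. Hspa5 had signals of 6201.4, 7332.6, 5979.9 and 6323.7 at 8 h, against 3225.1, 3861.2, 3378.4 and 3792.3 in untreated cells (0.74 ± 0.10, limma adjusted p = 1.95e-05). Hsp90b1 averaged 5386 ± 504 at 8 h and 2533 ± 328 in untreated cells (SD, n = 4 each; 1.05 ± 0.19). Both stood near the top of the signal scale, where the groups remained apart on every array. Whether signals this bright understate a change was not tested. Manf, a secreted ER protein, rose by 1.51 ± 0.14, Dnajb11 by 1.43 ± 0.18 and Pdia6 by 1.23 ± 0.22. Ero1a, the sister gene of Ero1b and a reported CHOP target, averaged 872 ± 82.8 at 8 h and 567 ± 39.5 in untreated cells (0.60 ± 0.15, limma adjusted p = 0.00669), and lost its call when all its probe sets were averaged. The single lower member was Txndc12, a thioredoxin-like ER protein, with a change of -0.43 ± 0.14 and overlapping groups (limma adjusted p = 0.0467), which was not called without untreated array C. Without untreated C 14 members were higher and 0 lower, Pdia3 and Fkbp2 also losing their calls. Members that were not called include Canx (0.23 ± 0.22), P4hb (0.28 ± 0.22) and Prdx4 (-0.28 ± 0.19).

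**Figure D2:**
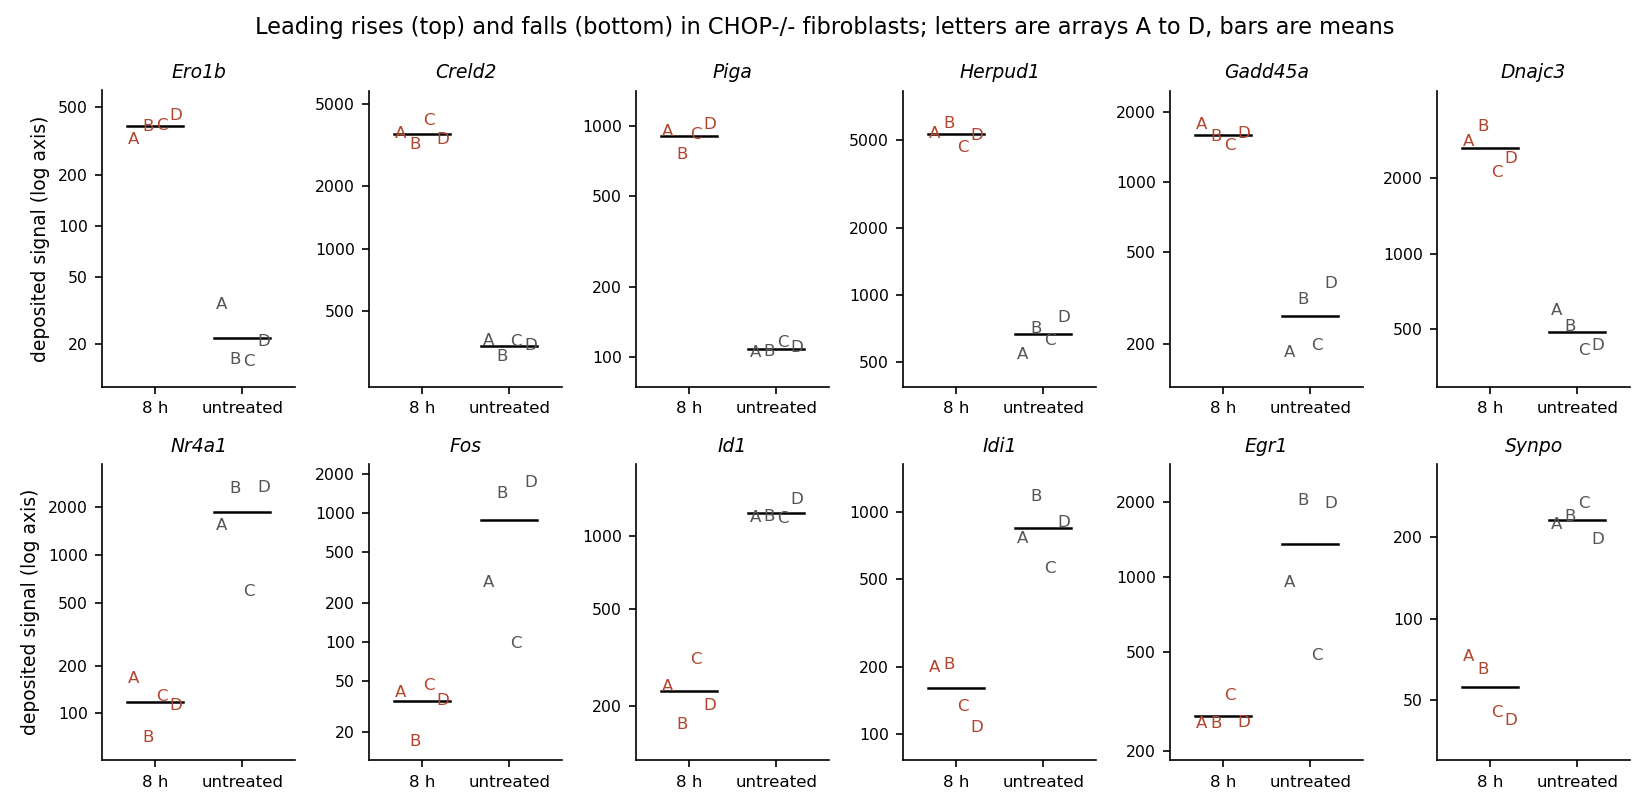
Signals of 6 of the largest rises (top row) and 6 of the largest falls (bottom row) on each array, with 8 h on the left and untreated on the right of each panel. The vertical axes are logarithmic, letters are the arrays A to D and bars are means. The genes were drawn from called genes whose arrays do not overlap, so the 2 groups are apart in every panel by that choice. Untreated array C is the lowest untreated array for Nr4a1, Fos, Idi1 and Egr1.

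Genes of ER-associated degradation, which returns misfolded proteins to the cytosol for destruction, were higher without exception among those called: 10 of 15 were higher and 0 lower, with a median of 0.66. Herpud1 had signals of 5334.1, 5930.7, 4610.8 and 5232.6 at 8 h, against 545.2, 707.8, 630.6 and 796.0 in untreated cells. Its groups were far apart relative to their spread (2.99 ± 0.11, limma adjusted p = 1.17e-15, the smallest of all genes). Sel1l, a scaffold of the ubiquitin ligase complex, averaged 687 ± 89.7 at 8 h and 207 ± 16.2 in untreated cells (1.71 ± 0.14). Derl1 and Derl2, channel components, rose by 1.24 ± 0.14 and 0.95 ± 0.19, and Edem1, Edem2 and Edem3, which recognise trimmed glycans, by 0.77, 0.66 and 0.92. Xbp1, counted with this list, had 1799.9, 1684.5, 2080.0 and 1969.7 at 8 h, against 1228.1, 1296.8, 1052.1 and 1587.8 in untreated cells (0.55 ± 0.13, limma adjusted p = 0.00481). The array signal does not separate spliced from unspliced Xbp1 mRNA here.

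Traffic out of the ER moved in the same direction by smaller amounts. Of 50 genes of translocation and vesicle transport, 19 were higher and 0 lower, with a median of 0.34, and 16 were higher without untreated C. Nucb2 rose by 1.27 ± 0.21, Stx5a, a syntaxin of ER to Golgi transport, by 1.15 ± 0.13, Sec23b, a coat component of vesicles leaving the ER, by 1.08 ± 0.13, Arfgap3 by 0.98 ± 0.15 and Lman2, a cargo lectin, by 0.92 ± 0.10. Stx5a had 1455.6, 1609.4, 1624.3 and 1506.5 at 8 h, against 680.3, 620.6, 735.7 and 798.6 in untreated cells, while Arfgap3 was less even, with 8 h array B high. Components of the signal recognition and cleavage steps were also called, from Sec11a (0.52) to Srprb (0.88).

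Among 24 genes of N-glycosylation and GPI anchors, 7 were higher and 0 lower, with a median of 0.25. Piga, which starts the synthesis of GPI anchors on the ER membrane, stood out with 948.4, 751.5, 917.0 and 1020.9 at 8 h, against 103.8, 105.1, 115.3 and 109.5 in untreated cells (3.01 ± 0.15, limma adjusted p = 1.26e-12). The groups are apart, and the untreated arrays are nearly even. The other 6 ranged from 0.36 to 0.84 and included Gmppb and Gnpnat1, which make sugar donors (0.84 ± 0.14 and 0.69 ± 0.15), and Rpn1, a subunit of oligosaccharyltransferase (0.54 ± 0.09). Dpagt1, the enzyme that tunicamycin inhibits, averaged 332 ± 31.7 at 8 h and 253 ± 21.3 in untreated cells (0.39 ± 0.13, limma adjusted p = 0.0424).

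The PERK branch, in which CHOP itself lies, responded in the cells without CHOP. Of 25 genes regulated by PERK and ATF4, 11 were higher and 0 lower. Ddit3 itself is on the list, and the median of the other 24 was 0.41. Atf4, the transcription factor whose translation rises when eIF2 alpha is phosphorylated, had 5071.4, 4937.9, 3888.7 and 4717.0 at 8 h, against 1859.3, 2143.1, 2402.4 and 2226.0 in untreated cells (1.05 ± 0.10, limma adjusted p = 8.26e-08). Trib3, a pseudokinase that binds ATF4, had 828.4, 652.7, 1020.5 and 815.2 at 8 h, against 180.9, 300.4, 169.5 and 391.2 in untreated cells (1.72 ± 0.27, limma adjusted p = 9.42e-05). Ppp1r15a (GADD34), which directs a phosphatase to eIF2 alpha, had 635.0, 718.8, 561.7 and 584.0 at 8 h, against 210.7, 249.0, 140.9 and 346.6 in untreated cells (1.45 ± 0.20, limma adjusted p = 1.86e-05). The groups are apart for all 3 genes. Stc2, a secreted glycoprotein, rose by 1.90 ± 0.20, Ddit4, an inhibitor of mTORC1 signalling, by 1.13 ± 0.18, Psph of serine synthesis by 0.88 ± 0.15 and Cebpg by 0.83 ± 0.12.

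Other familiar members were not called. Asns, asparagine synthetase, had 4700.1, 5020.4, 3864.5 and 4334.7 at 8 h, against 3028.4, 3986.5, 4999.3 and 3325.2 in untreated cells. Its groups overlap, with untreated C the highest of the untreated arrays (0.13 ± 0.09, limma adjusted p = 0.408, and 0.22 ± 0.09 with an adjusted p of 0.111 without that array). Atf3, a transcription factor of the same branch, had 636.3, 379.6, 603.4 and 480.6 at 8 h, against 225.8 and 632.5 on untreated A and B and 1190.0 on untreated D, with C lowest (0.52 ± 0.54, limma adjusted p = 0.59). Its groups overlap, and without untreated C its change was -0.08.

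Charging and uptake of amino acids followed with modest changes. Of 18 aminoacyl-tRNA synthetases, 6 were higher and 0 lower, with a median of 0.42, and without untreated array A 2 were called. Wars, for tryptophan, had 1438.3, 1415.2, 1104.8 and 1319.9 at 8 h, against 672.3, 656.5, 531.2 and 656.9 in untreated cells (1.08 ± 0.13, limma adjusted p = 3.06e-06). Rars rose by 0.71 ± 0.13, Cars by 0.68 ± 0.20, Tars by 0.61 ± 0.17, Lars by 0.54 ± 0.14 and Nars by 0.42 ± 0.13. Among 9 amino acid transporters, Slc3a2, the heavy chain shared by several exchangers, averaged 4473 ± 369 at 8 h and 2122 ± 296 in untreated cells (1.02 ± 0.12). Slc7a3 rose by 0.77 ± 0.20 and Slc38a4 fell by 0.88 (SE 0.25). Without untreated C, 4 transporters were higher and 1 lower, Slc6a9 and Slc7a5 being the additions.

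Further transcripts rose strongly. Noncoding hosts of small nucleolar RNAs, whose transcripts are degraded during translation and last longer when translation slows, were listed with other decay-sensitive and RNA-processing genes. Of the 13 tested, 5 were higher and 0 lower: the hosts Snhg5 and Snhg1, and Gadd45a, Gadd45b and Atf4, which are no such hosts. Snhg5 had 607.1, 446.4, 1081.6 and 822.5 at 8 h, against 114.8, 48.6, 95.4 and 119.4 in untreated cells (2.91 ± 0.44, limma adjusted p = 7.55e-05). Snhg1 averaged 2180 ± 397 at 8 h and 595 ± 86.3 in untreated cells (1.88 ± 0.33). Gadd45a, a growth arrest gene shared with the p53 list, had 1765.7, 1571.3, 1432.7 and 1610.5 at 8 h, against 184.0, 312.6, 198.4 and 366.8 in untreated cells (2.64 ± 0.23, limma adjusted p = 3.32e-08). Its relatives Gadd45b and Gadd45g rose by 1.83 ± 0.29 and 0.94 ± 0.26. The other called p53 targets, Btg2 (-0.86 ± 0.23) and Ei24 (-0.65 ± 0.14), were lower, and 10 of the 15 p53 targets were not called.

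The remaining large rises fell outside the lists. Rabepk, a kelch-repeat protein that binds RAB9, had 273.4, 322.7, 424.2 and 314.3 at 8 h, against 23.3, 11.3, 12.0 and 19.6 in untreated cells. All 4 untreated signals lie below the filter, so the rise is at least 12.0-fold when that limit stands in for them (log2 change 4.00 ± 0.28, limma adjusted p = 1.16e-09). Taf1d, a subunit of the RNA polymerase I initiation factor, averaged 2072 ± 497 at 8 h and 459 ± 105 in untreated cells (2.18 ± 0.41). Trabd rose by 2.00 ± 0.28, Gch1, which starts the synthesis of tetrahydrobiopterin, by 1.97 ± 0.36, and Phkg2, a catalytic subunit of phosphorylase kinase, by 1.95 ± 0.19. Phkg2 was the most even of these: 387.1, 402.2, 384.5 and 406.5 at 8 h, against 110.9, 91.0, 105.5 and 92.5 in untreated cells. Akap17b averaged 83.3 ± 18.5 at 8 h, against 4 untreated signals of 15.1 to 26.0, all below the filter (at least 3.00-fold).

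The deepest falls were immediate-early genes, which serum and growth factors switch on within minutes. Of 29 tested, 14 were lower and 1 higher, with a median of -0.52. Nr4a1, an orphan nuclear receptor, had 164.6, 70.7, 126.7 and 112.4 at 8 h, against 1536.3, 2640.9, 588.6 and 2687.2 in untreated cells (-3.76 ± 0.38, limma adjusted p = 2.34e-07). Fos, a subunit of AP-1, had 40.6, 16.9, 46.0 and 35.3 at 8 h, against 286.8, 1415.3, 96.6 and 1705.1 in untreated cells (-3.67 ± 0.66, limma adjusted p = 0.000429). Egr1, a zinc finger factor, had 257.3, 256.7, 332.7 and 260.8 at 8 h, against 952.7, 2039.3, 483.8 and 1977.3 in untreated cells (-2.06 ± 0.45, limma adjusted p = 0.00292). The groups are apart for each, yet the untreated arrays themselves spread widely, with B and D high and C low. Ier3 fell by 1.31 (SE 0.17), Dusp6, a phosphatase of ERK, by 1.07 (SE 0.19, and by 0.42 without a call when its probe sets were averaged) and Errfi1, a feedback inhibitor of the EGF receptor, by 1.69 (SE 0.42). Nfil3, a repressor with a basic leucine zipper, was the higher member (1.33 ± 0.22).

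The spread of the untreated arrays bears on the whole list. Its mean log2 level was 8.75, 8.45, 8.73 and 8.54 at 8 h, against 9.21, 9.74, 8.66 and 9.95 in untreated cells, so untreated C lies among the 8 h arrays. Without untreated C, 17 members were lower and 1 higher, Jun, Zfp36l1 and Plk2 being added, with a median of -0.85. Egr2 (-1.80 ± 0.47) and Nfkbiz, an inducible IkappaB protein (-1.87 ± 0.41), followed the same order of arrays. For Nfkbiz the deposited signals of the groups overlap, at 188.3 on 8 h array C and 187.9 on untreated C, while the normalized values do not.

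Genes of cholesterol synthesis fell, with 1 exception among those called. Of 17 tested, 8 were lower and 1 higher, with a median of -0.73. Idi1, isopentenyl diphosphate isomerase, had 199.3, 205.4, 133.0 and 107.3 at 8 h, against 758.2, 1167.0, 553.4 and 894.4 in untreated cells (-2.32 ± 0.23, limma adjusted p = 2.34e-07). Sqle, squalene epoxidase, had 475.5, 638.6, 392.1 and 454.4 at 8 h, against 1440.2, 1515.5, 1117.1 and 1242.5 in untreated cells (-1.45 ± 0.14, limma adjusted p = 2.34e-07). Untreated C is the lowest untreated array for both, and the groups stay apart. Hmgcs1 fell by 1.44 (SE 0.25) and Msmo1 by 1.25 (SE 0.25). Mvd, mevalonate diphosphate decarboxylase of the same pathway, was the exception, at 390 ± 38.3 at 8 h and 213 ± 52.1 in untreated cells (0.89 ± 0.19, limma adjusted p = 0.00183). Elovl6, a fatty acid elongase outside the list, had 22.3 to 26.3 at 8 h, all below the filter, against 76.6 to 133.8 in untreated cells, a fall of at least 3.80-fold. Without untreated C, 10 list members were lower and 1 higher, with Cyp51 and Hsd17b7 added.

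Targets and ligands of the BMP and TGF-beta pathways were lower: 7 of 17, with 0 higher and a median of -0.33. Id1, an inhibitor of differentiation factors and a direct BMP target, had 241.4, 167.6, 311.5 and 200.6 at 8 h, against 1194.2, 1209.9, 1180.5 and 1417.5 in untreated cells (-2.45 ± 0.19, limma adjusted p = 3.81e-09). Its untreated arrays were even, unlike those of the immediate-early genes. Id2 fell by 1.67 (SE 0.28), Id4 by 0.82 (SE 0.21), Tgfb3 by 0.67 (SE 0.16) and Bmp4 by 0.86 (SE 0.25). Without untreated C 5 were lower, Tgfb2 and Bmp4 being lost, and with arrays centred on their medians 4 were lower.

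The extracellular matrix list showed 10 of 52 genes lower and 0 higher, with a median of -0.32. Has2, hyaluronan synthase, had 551.0, 429.1, 419.0 and 324.6 at 8 h, against 1509.7, 1269.9, 1372.6 and 702.5 in untreated cells (-1.47 ± 0.25, limma adjusted p = 0.000304). Mfap2, a microfibril protein, averaged 196 ± 31.0 at 8 h and 509 ± 28.4 in untreated cells (-1.36 ± 0.18). Col8a1 fell by 0.76 (SE 0.17), Col3a1 by 0.79 (SE 0.18) and Nid1 by 0.79 (SE 0.22), whereas Col1a1 (-0.02) and Col1a2 (-0.08) were not called. Without untreated array C 5 members were lower, Col5a1, Col6a1, Col6a3, Col18a1 and Lama4 losing their calls, and with median centring 4 were called.

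Cell cycle and replication was the list with the most falls, 28 of 58 with 0 higher and a median of -0.60. Rpa1, of the single-strand binding complex, had 303.2, 399.6, 216.0 and 351.5 at 8 h, against 656.5, 780.5, 1010.9 and 488.0 in untreated cells (-1.18 ± 0.19, limma adjusted p = 0.000142). Mcm3, of the replicative helicase, had 134.9, 131.1, 141.7 and 170.6 at 8 h, against 360.7, 240.5, 429.0 and 234.1 in untreated cells (-1.04 ± 0.17, limma adjusted p = 0.000203). Pcna, the sliding clamp, averaged 534 ± 89.4 at 8 h and 947 ± 176 in untreated cells (-0.83 ± 0.14). Untreated C is the highest array for all 3, and the groups remain apart. Kif2c, a mitotic kinesin, fell by 1.18 (SE 0.20), Ccnd3, cyclin D3, by 0.77 (SE 0.14) and Bub1, a checkpoint kinase, by 1.37 (SE 0.24).

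The list mean shows the dependence directly. It was 7.26, 7.34, 7.22 and 7.42 at 8 h, against 7.80, 7.63, 8.31 and 7.59 in untreated cells, where C is the highest array. Without untreated C, 19 members were lower and 2 higher (Cdc6 and Rpa2), with a median of -0.44. The 9 falls lost were Mcm2, Rfc2, Rfc4, Rfc5, Lig1, Rrm2, Tk1, Ccnb2 and Mki67.

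**Figure D3:**
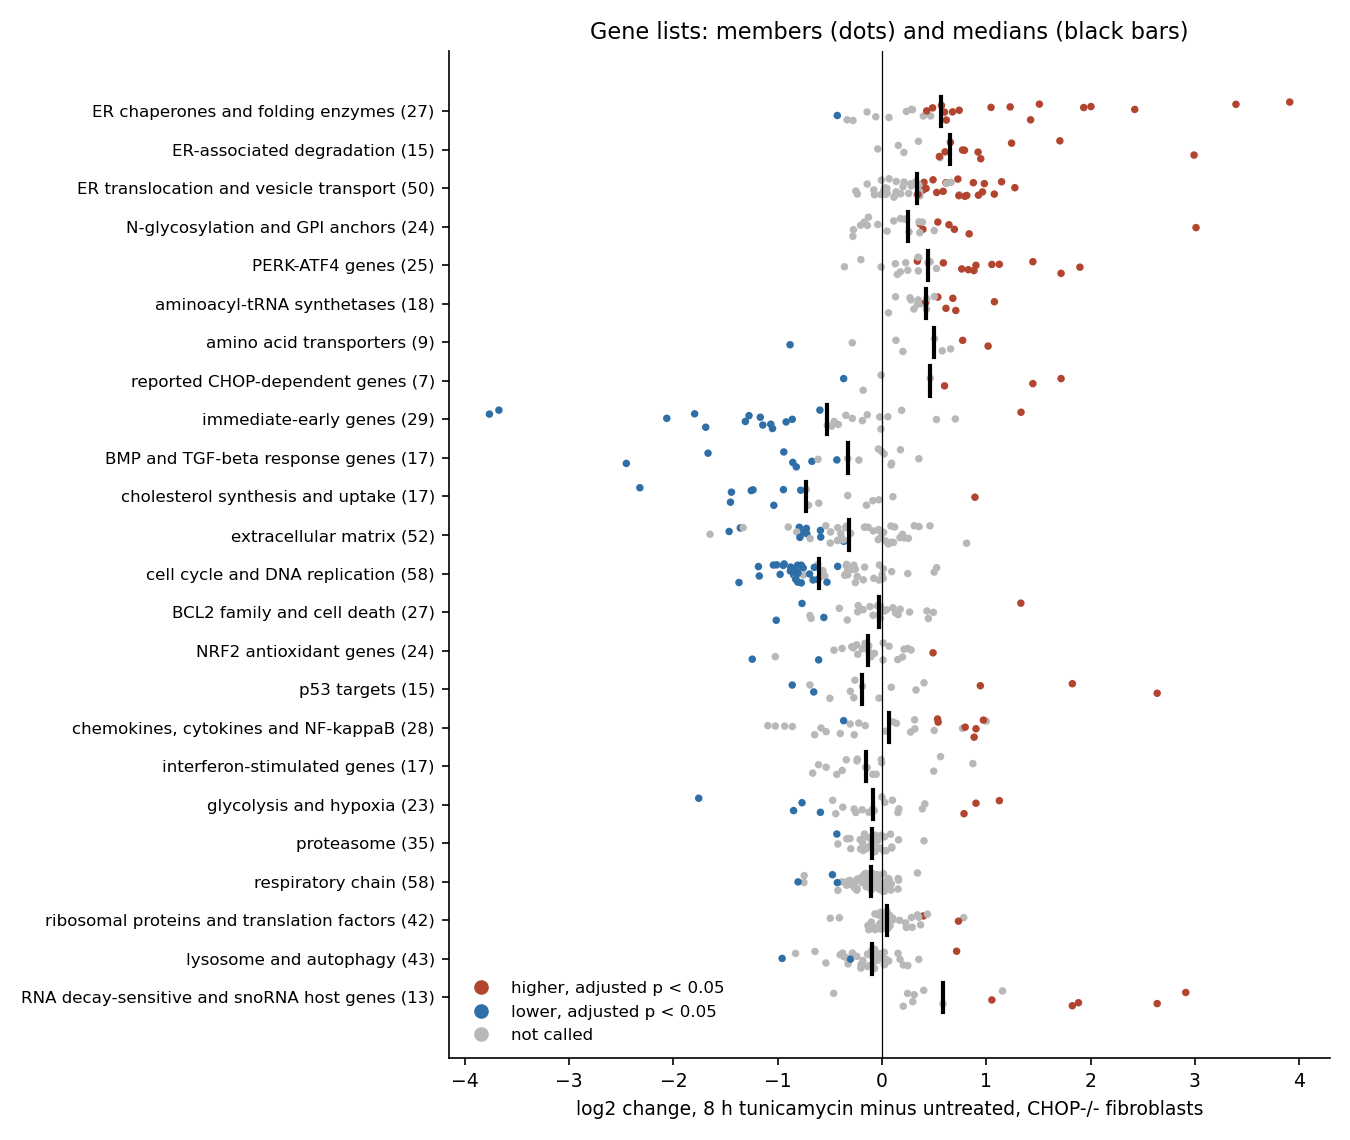
Log2 changes at 8 h of the members of 24 gene lists in CHOP-/- fibroblasts, one row per list with the number tested in brackets. Dots are genes, red where higher and blue where lower at an adjusted p under 0.05, and black bars are list medians. The ER lists lie to the right of 0 and the immediate-early, cholesterol and cell cycle lists to the left; the proteasome and respiratory chain lists lie close to 0.

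Further falls lay outside these lists. Ptger4, a receptor for prostaglandin E2, had 48.0, 45.6, 43.9 and 19.0 at 8 h, against 266.9, 327.6, 78.0 and 183.8 in untreated cells (-2.09 ± 0.36, limma adjusted p = 0.000339). Synpo, an actin-binding protein, had 72.2, 65.1, 45.0 and 42.0 at 8 h, against 222.7, 237.7, 265.8 and 196.5 in untreated cells (-1.92 ± 0.19, limma adjusted p = 2.36e-07). Nrep averaged 227 ± 52.5 at 8 h and 849 ± 127 in untreated cells (-1.89 ± 0.21). Dab2, an endocytic adaptor, fell by 1.86 (SE 0.32), and Gas1, a membrane protein of growth arrest and hedgehog signalling, by 1.83 (SE 0.23). Ogn (-1.95 ± 0.55) and Ccn5 (-1.94 ± 0.62), both secreted matrix-associated proteins, were less secure: Ccn5 lost its call without any one of 7 of the 8 arrays and Ogn without untreated D, 8 h B or 8 h D.

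Death, stress and inflammatory lists changed little or in both directions. Of 27 genes of the BCL2 family and cell death, 1 was higher and 3 lower: Birc2, an inhibitor of apoptosis (1.33 ± 0.20, and 0.62 with an adjusted p of 0.108 in limma when all its probe sets were averaged), against Casp6 (-1.01 ± 0.17), Bnip3 (-0.77 ± 0.21) and Apaf1 (-0.56 ± 0.14). Bcl2, which CHOP is reported to repress, averaged 128 ± 38.5 at 8 h and 134 ± 31.3 in untreated cells (-0.04 ± 0.27) and was not called. Of 24 NRF2 antioxidant genes, Hmox1 was higher (0.49 ± 0.15) and Gsr (-1.24 ± 0.20) and Gstm1 (-0.61 ± 0.16) were lower. Of 23 genes of glycolysis and hypoxia, 3 were higher, among them Hk2 (0.79 ± 0.20, a call lost when its probe sets were averaged) and Vegfa (0.90 ± 0.21), and 4 lower, among them Adm, adrenomedullin (-1.76 ± 0.30), and Pfkm (-0.85 ± 0.21).

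Among 28 chemokines, cytokines and NF-kappaB genes, 6 were higher and 1 lower, Relb (0.97 ± 0.21), Nfkb2 (0.80 ± 0.18), Ccl7 (0.88 ± 0.22), Ccl2 (0.54 ± 0.14) and Csf1 (0.53 ± 0.13) rising and Vcam1 falling. Without untreated C 6 were higher and 3 lower, Cxcl1 and Edn1 being added, and Relb lost its call when all its probe sets were averaged. Leukocyte markers differed between arrays of the same group beside these values. Their mean log2 level over 8 tested markers was 6.53 and 6.79 on 8 h arrays A and B and 5.53 and 5.68 on C and D, against 7.08, 6.66, 6.80 and 5.87 in untreated cells, and their part in the result was not tested. Of 17 interferon-stimulated genes limma called 0, with 2 at an unadjusted p under 0.05. Without untreated C 1 was called, Ifi47, and with the replicate letter as a block 3 were.

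Housekeeping lists held few calls. In the proteasome list 1 of 35 genes was called, Psma5 (-0.43 ± 0.085), and in the respiratory chain list 3 of 58, all lower: Uqcrh (-0.80 ± 0.17), Cox7a2 (-0.47 ± 0.10) and Sdhd (-0.43 ± 0.11). Of 42 ribosomal proteins and translation factors, Eif1a (0.73 ± 0.11) and Eif3d (0.40 ± 0.10) were higher and 0 lower. Of 43 lysosome and autophagy genes, Atg12 was higher (0.72 ± 0.20) and Gusb (-0.96 ± 0.18) and Gabarapl1 (-0.30 ± 0.10) were lower, the Gabarapl1 call being lost in 12 of 20 alternative settings. Without untreated C the respiratory chain list had 6 lower, with Ndufa3, Ndufb3 and Cox7b added, and the lysosome list had 1 higher and 6 lower. With arrays centred on their medians 0 genes of the proteasome and respiratory chain lists were called.

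The 4 h arrays place these changes in time. In CHOP-/- cells 84 genes were called at 4 h against untreated cells (1.48%), and 66 of them were called in the same direction at 8 h. The 4 h and 8 h comparisons share the untreated arrays. Directly between 4 h and 8 h, 315 genes were called (5.53%), 194 higher and 121 lower at 8 h. That count is 120 without 4 h array C and 134 without 4 h array D, 2 arrays that lay nearer to untreated cells in the chaperone list. It is 193, 181 and 154 without 8 h arrays A, C and D.

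Of the 27 chaperones and folding enzymes, 12 were higher and 1 lower at 8 h than at 4 h. Ero1b averaged 385 ± 51.6 at 8 h and 65.0 ± 41.6 at 4 h (2.77, limma adjusted p = 5.47e-05). Creld2 averaged 3571 ± 415 at 8 h and 988 ± 522 at 4 h (2.00, limma adjusted p = 4.13e-05). Rabepk (1.96), Akap17b (1.61), Taf1d (1.59) and Dnajc3 (1.45) were also called; Taf1d lost this call without 4 h array C or D or 8 h array C or D. Herpud1, by contrast, averaged 5277 ± 540 at 8 h and 4635 ± 626 at 4 h (0.22, limma adjusted p = 0.26), and Atf4 4654 ± 531 at 8 h and 4221 ± 340 at 4 h (0.12, limma adjusted p = 0.54), so neither was called over the second interval. Xbp1 was at 1884 ± 176 at 8 h and 2000 ± 88.8 at 4 h.

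The leading falls were also lower at 8 h than at 4 h. Nr4a1 averaged 119 ± 38.8 at 8 h and 1267 ± 294 at 4 h (-3.38), Id1 230 ± 62.0 at 8 h and 903 ± 89.5 at 4 h (-1.98), and Idi1 161 ± 48.7 at 8 h and 671 ± 148 at 4 h (-2.05). Cxcl1, Il6 and Ch25h were also among the largest falls over this interval. Cxcl1, a chemokine, averaged 326 ± 149 at 8 h and 1791 ± 682 at 4 h (-2.48, limma adjusted p = 0.000167), Il6 189 ± 104 at 8 h and 815 ± 304 at 4 h (-2.17), and Ch25h, cholesterol 25-hydroxylase, averaged 74.3 ± 38.4 at 8 h and 292 ± 120 at 4 h (-1.93). Against untreated cells Cxcl1 (-1.02) and Il6 (-0.93) were not called at 8 h, and Ch25h was (-1.57), with overlapping arrays. The 8 h against 4 h call was lost for Il6 without 8 h D and for Ch25h without 4 h C, 4 h D or 8 h D.

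**Figure D4:**
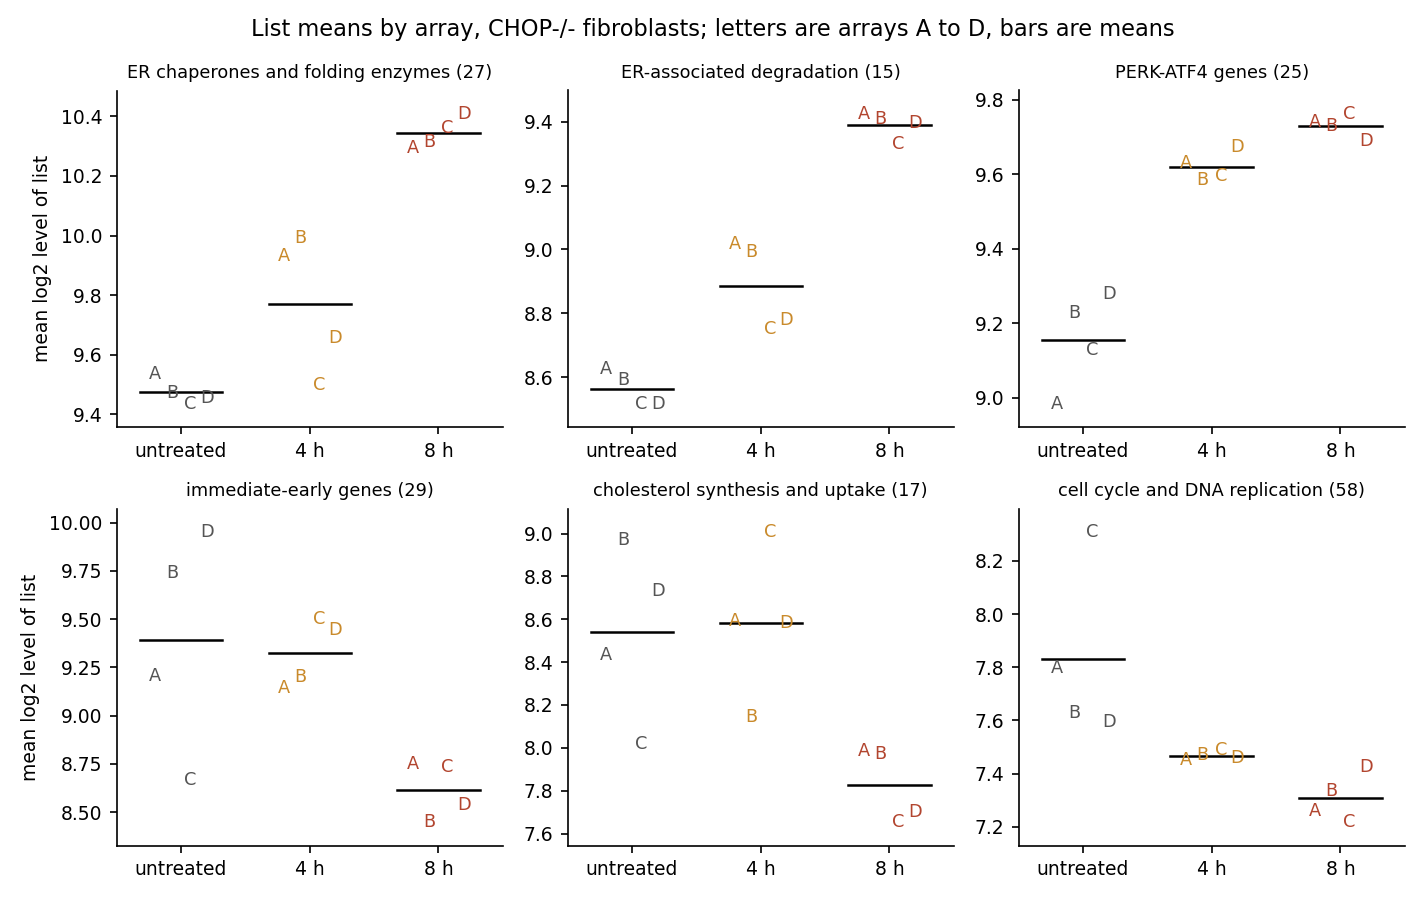
Mean log2 level of 6 gene lists on each CHOP-/- array, untreated, at 4 h and at 8 h. Letters are arrays A to D and bars are group means; the number of genes averaged is in brackets. The ER lists are highest at 8 h, immediate-early and cholesterol genes are on average lowest at 8 h, and untreated C is high for the cell cycle list (8.31) and low for the immediate-early (8.66) and cholesterol (8.02) lists.

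The same treatment of wild type cells gives the base against which the absence of CHOP can be read. In wild type cells 944 genes were called at 8 h (16.6%). Of the genes called, 511 were called in the same direction in both genotypes, which is 64.5% of those in CHOP-/- cells and 54.1% of those in wild type cells, and 1 was called in opposite directions. These 2 comparisons share no arrays. At 8 h, though, deviations of same-letter arrays correlated between the genotypes, at 0.359, 0.416, 0.546 and 0.286 for A to D. The part of this correlation in the overlap was not tested. Of the 792 genes called in CHOP-/- cells, 773 had the same sign in wild type cells (97.6%). The median change of the chaperone list was 0.57 in CHOP-/- cells and 0.59 in wild type cells. That of the cell cycle list was -0.60 in CHOP-/- cells and -0.27 in wild type cells. Without untreated CHOP-/- array C the CHOP-/- median of the cell cycle list was -0.44. The difference between the genotypes was not tested for the list.

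The difference of the responses, the change in CHOP-/- cells less that in wild type cells, was tested for every gene. It was called for 2 of 5692 genes (0.0351%), with 262 at an unadjusted p under 0.05. Ddit3, the deleted gene, is 1 of them. Its CHOP-/- signals lie mostly below the filter, which it passed through the wild type arrays, so its call checks the labels and is no further result. The other is Vcam1, a cell adhesion molecule of the NF-kappaB targets. Vcam1 had 457.2, 512.5, 564.1 and 454.6 in CHOP-/- cells at 8 h, against 637.7, 725.2, 594.9 and 647.4 in untreated CHOP-/- cells, and averaged 948 in wild type cells at 8 h, against 620 in untreated wild type cells. It was thus lower on all 4 treated CHOP-/- arrays (-0.37 ± 0.12, limma adjusted p = 0.0497, a call lost in 13 of 20 alternative settings) and higher in wild type cells (0.59), with a response difference of -0.96 (limma adjusted p = 0.0384). That call was lost under 17 of 29 alternative settings, including those without array A, B or D of either CHOP-/- group, without wild type untreated array A, C or D, and without wild type 8 h array A, B or C. It was also lost with the replicate letter as a block within each time, which leaves Ddit3 alone.

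Of the 7 tested genes reported to depend on CHOP, Vcam1 passed this test and the other 6 did not. The list was chosen with earlier results of these data known, so the Vcam1 call is no independent check of such a report. Car6, also reported to depend on CHOP, did not pass the filter on low signals and was left out of this test. Trib3 changed by 1.72 in CHOP-/- cells and 2.28 in wild type cells, Ppp1r15a by 1.45 in CHOP-/- cells and 2.02 in wild type cells, and Ero1a by 0.60 in CHOP-/- cells and 1.16 in wild type cells. Of 7 such genes 3 were higher and 1 lower in CHOP-/- cells, against 5 higher and 0 lower in wild type cells. The median SE of a response difference was 0.268, against 0.189 for a change within 1 genotype, which bounds what 4 arrays a group resolve.

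**Figure D5:**
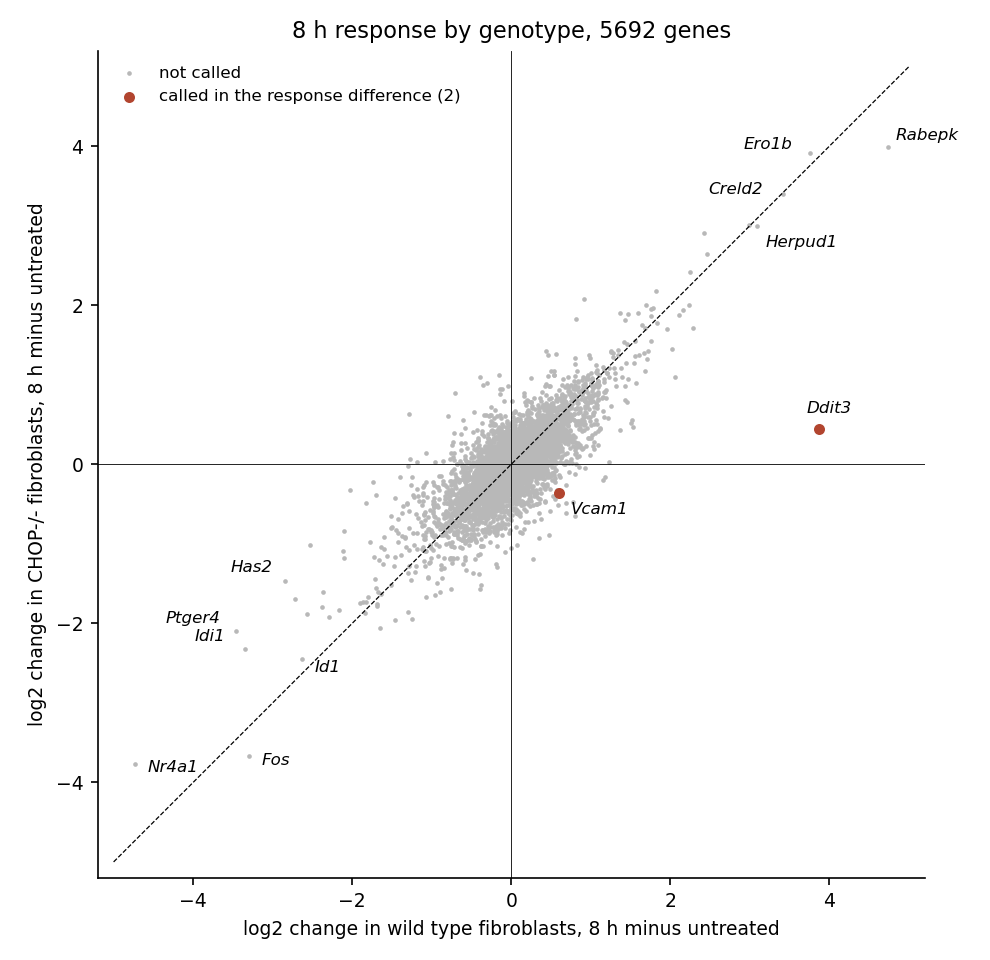
Log2 change at 8 h in CHOP-/- fibroblasts (vertical axis) against that in wild type fibroblasts (horizontal axis) for 5692 genes; the dashed line marks equal changes. Red dots are the 2 genes called in the response difference, Ddit3 (0.44 in CHOP-/- cells and 3.87 in wild type cells) and Vcam1 (-0.37 in CHOP-/- cells and 0.59 in wild type cells).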

How the data were processed

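The members and gene lists were chosen with earlier results of these data known. RNA from 24 samples was hybridised to arrays of 12488 probe sets. The deposited intensities are linear signals, and per the file headers no scaling method is named; each array's trimmed mean is nearly equal, so the authors' values look scaled to a common level. Of the probe sets, 10833 carry 1 gene symbol, 396 carry several and 1193 carry none, and 10817 of the first kind matched RefSeq.

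From the deposited intensities log2(signal + 5.7) was computed and quantile normalized over all 24 arrays. The probe set with the highest mean stood for its gene, and genes with a mean log2 above 5.064 (signal 27.7) were tested. limma 3.58.1 (R 4.3.3) then estimated 6 group means per gene with an intensity trend, 18 residual degrees of freedom and Benjamini-Hochberg adjustment within each comparison. The procedure was tested on simulated data. The number of arrays, 4 in each group, limits the precision. Named genes were a fixed set of response genes, the 15 largest rises and 15 largest falls among called genes whose arrays do not overlap, the 6 largest rises and 6 largest falls between 4 h and 8 h, genes called in the response difference, up to 5 members of each list by adjusted p, and members called against the majority of their list. Genes named as gained or lost without an array, and those with a promoter motif, were chosen after their values were seen. Motifs were searched with Python 3.11.15 in RefSeq promoter windows (GRCm38.p6). Alternatives varied the pseudocount, filter, normalization, choice of probe set, array weights, trend, samples fitted and replicate block, and left out each array in turn.

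Same letters do not consistently pair 8 h with untreated CHOP-/- arrays: deviations from the group means correlated at 0.065, -0.092, -0.053 and 0.27 for A to D. The highest correlation with an untreated array of another letter was 0.338, 0.423, 0.408 and -0.001 for 8 h A to D. Pairing under other letters was not tested. At 8 h the letters pair the genotypes, at 0.359, 0.416, 0.546 and 0.286, whereas between untreated genotypes the values were 0.081, 0.1, -0.033 and -0.077.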

Additional observations from a re-analysis of the deposited data

Results flagged for a closer look

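In 284 checks of a gene within a group of 4 arrays, 12 single arrays lay far from the other arrays of their group, and chance gives about 1 in 20. The gap to the nearest array, as a share of the whole range, was 0.89 for Dnajb9 (untreated C low), 0.887 for Asns (untreated C high), 0.897 for Bnip3 (untreated C low), 0.895 for Id1 (untreated D high), 0.854 for Cebpg (untreated D high), 0.853 for Apaf1 (untreated D low) and 0.935 for Eef2k (untreated D low). It was 0.948 for Akap17b (untreated A high), 0.904 for Ptger4 (8 h D low), 0.876 for Egr1 (8 h C high), 0.835 for Arfgap3 (8 h B high) and 0.952 for Kif2c (8 h B low).

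The 8 h response differed between CHOP-/- and wild type cells for Ddit3, the deleted gene, by a fitted -3.43 that rests on CHOP-/- signals mostly below the filter, and for Vcam1, by -0.96, in limma's test of the difference itself.

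Probe sets that carry several gene names or none were used in no comparison above. Of 679 such probe sets past the filter, limma called 71 at 8 h in CHOP-/- cells, 35 higher and 36 lower.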

How the results depend on the processing

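The count of genes called at 8 h in CHOP-/- cells, 792, lay between 581 (without 8 h array A) and 1027 (array weights) over all alternatives run, and with the replicate block it was 923. The count for the response difference, 2, was 1 with median centring, with all probe sets of a gene averaged, with no intensity trend, with only the groups compared and with the replicate block within each time, an alternative chosen after seeing the data. It was 5 with array weights, 3 with no filter and with every single-gene probe set, and between 1 and 2 with 1 array left out. Between 4 h and 8 h the count of 315 was 162 with only the groups compared, which leaves fewer arrays to estimate the spread, between 120 and 409 with 1 array left out, and 407 with the replicate block. Median centring moved the higher share of the 4 h to 8 h calls to 79.7%, against 61.6%. The cause was not tested for the other changes. Of 115 named genes called at 8 h, 83 were called in every setting, 32 lost the call in some and 0 reversed. The Ddit3 difference was called in all alternatives. No probe-set pair of a gene was called in opposite directions among 167 genes checked, though 15 had probe sets of opposite sign.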

Other observations

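The families in this section were chosen after their values were seen and carry no test of their own. Of 60 nucleolar genes of ribosome assembly, 28 were higher and 1 lower at 8 h in CHOP-/- cells, with a median of 0.50, beside a median of 0.07 at 4 h with 1 gene higher. In wild type cells at 8 h 42 were higher and 0 lower. Rcl1 rose by 1.32, Ddx49 by 1.10 and Nop56, a core protein of small nucleolar particles, by 0.86, while Nop10 fell by 0.37. Of 72 zinc finger genes recognised by their symbols, 26 were higher and 2 lower, with a median of 0.46, against 24 higher and 2 lower in wild type cells.

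Of 13 circadian clock genes, 4 were higher: Arntl (BMAL1), at 1.44, Cry1 at 1.12, Cry2 at 0.94 and Clock at 0.59. The other 9 were not called, and the median over the 13 was 0.11. Over all tested genes 7.27% were called higher. In wild type cells at 8 h 3 clock genes were higher and 2 lower, with a median of -0.09. Of 5 genes of the ER stress sensors and their proteases, Eif2ak3, which encodes PERK, rose by 1.54 ± 0.22 and Atf6 by 1.10 ± 0.17, and 3 were not called. Rabepk, among the largest rises, is the map neighbour of Hspa5, which rose by 0.74.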
